A study of Mus musculus with 3 samples.

Results

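The 8 genes described here mark the erythroid lineage (*Hba-a1*, *Hbb-b1*, *Alas2*, *Epor* and *Klf1*) and the megakaryocyte lineage (*Pf4*, *Itga2b* and *Gp9*), measured in mast cell progenitors (MCps) of WT and *p85α−/−* mice. They were found by name among the probes of the arrays, controls left out, which gave 11 probes of 7 genes. *Pf4* carries its older name *Cxcl4* on these arrays and was found by its transcript accession, which made 12 probes of 8 genes out of 41174 probes in all. On each of 3 Agilent arrays a WT culture was set against a *p85α−/−* culture, all from independent mice (n = 3 per genotype). Low density mononuclear marrow cells spent 7 days in IL-3 (10 ng/mL), were sorted as positive for both KIT and the IgE receptor, and then received the KIT ligand SCF (100 ng/mL) for 48 hours. The cDNA was amplified by PCR from few cells, and as WT was always labeled with Cy3 and *p85α−/−* with Cy5, dye and genotype cannot be told apart. *p85α−/−* stands for disruption of *Pik3r1*, which encodes the p85α regulatory subunit of PI3 kinase, and the ages of the mice are not given in the sources used here.

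Red cells, platelets and mast cells all descend from marrow progenitors and share several transcription factors, among them GATA factors. Erythroid cells make hemoglobin from α and β globin chains and heme, under the erythropoietin receptor and the factor KLF1, whereas megakaryocytes make the platelet integrin αIIbβ3, the glycoprotein Ib-IX-V complex and granule chemokines such as platelet factor 4. Transcripts of both lineages can be read in marrow cultures from early progenitors or from a minority of other cells, and in bulk samples such as these, more cells of a type and more RNA per cell cannot be told apart.

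Several members share short promoter letters, and the stretches upstream of 4 of them are shown because these genes had the highest SD over the 6 cultures at their most variable probe. Each runs 5′ to 3′ on the strand of the gene, over the 250 bases before the transcript start, from RefSeq on GRCm38.p6. Capitals mark GATAA or its reverse complement TTATC, the core that GATA factors read, and CACCC or its reverse complement GGGTG, the core of the box that KLF1 reads. Hba-a1 is at chr11:32283422-32283671 (plus strand), Hbb-bt at chr7:103813924-103814173 (minus strand), Klf1 at chr8:84901732-84901981 (plus strand) and Pf4 at chr5:90772185-90772434 (plus strand). Hbb-bt is the RefSeq gene that holds the transcript of the array's *Hbb-b1* probes.
Hba-a1: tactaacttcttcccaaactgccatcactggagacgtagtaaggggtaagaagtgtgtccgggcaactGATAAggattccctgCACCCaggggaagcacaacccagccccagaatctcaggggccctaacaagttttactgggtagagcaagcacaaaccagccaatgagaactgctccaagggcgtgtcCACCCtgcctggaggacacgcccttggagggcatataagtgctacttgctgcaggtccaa
Hbb-bt: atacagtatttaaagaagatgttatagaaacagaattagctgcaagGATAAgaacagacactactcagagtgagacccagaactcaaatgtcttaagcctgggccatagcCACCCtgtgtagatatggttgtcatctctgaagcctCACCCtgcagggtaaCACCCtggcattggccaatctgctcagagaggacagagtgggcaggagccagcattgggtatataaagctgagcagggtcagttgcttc
Klf1: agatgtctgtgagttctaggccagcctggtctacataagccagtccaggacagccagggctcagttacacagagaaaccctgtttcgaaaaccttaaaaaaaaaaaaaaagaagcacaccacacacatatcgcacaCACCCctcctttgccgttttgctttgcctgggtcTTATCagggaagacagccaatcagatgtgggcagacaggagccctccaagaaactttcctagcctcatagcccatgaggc
Pf4: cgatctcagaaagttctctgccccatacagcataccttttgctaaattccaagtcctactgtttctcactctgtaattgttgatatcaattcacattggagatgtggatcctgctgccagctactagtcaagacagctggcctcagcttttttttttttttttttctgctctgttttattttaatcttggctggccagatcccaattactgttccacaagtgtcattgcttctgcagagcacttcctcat

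Both motifs occurred in 6 of the 8 members' stretches, those of *Hba-a1*, Hbb-bt, *Alas2*, *Epor*, *Klf1* and *Gp9*, and neither occurred in those of *Pf4* and *Itga2b*. Over the same 250 bases of the 32851 mouse promoter windows, 22.6% held GATAA, 52.0% held CACCC and 10.1% held both, on either strand. A match describes letters only. With the 50 bases after the start included, the 300-base windows of *Hba-a1* and *Hba-a2* shared an unbroken run of 297 bases. The α globin copies are near-identical in sequence, as are the adult β globin copies, and *Hba-a2* and *Hbb-b2* have no probe of that name, so globin signal cannot be assigned to 1 copy.

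Signals were corrected for background and the 6 channels were quantile normalized, and limma tested for each of 41157 probes whether its log2 ratio (*p85α−/−* over WT within an array) differed from 0. No member probe had an adjusted p under 0.05 (0 of 12), where the share of all probes was 0%. The adjusted p of the members lay between 0.908 and 0.996, and the lowest of any probe was 0.763. A change of at least 1.5-fold with an unadjusted p under 0.05, the criteria of the methods, was met by 0 of 12 member probes and by 4.44% of all probes. All 3 arrays gave a ratio of 1 sign for 1 of 12 member probes, that of *Pf4*, against 25.8% of all probes. WT and *p85α−/−* values overlapped at every member probe, and 10.5% of all probes had values that did not overlap. At all 12 probes the mean log2 ratio was smaller than its SD between arrays. Taking the brightest probe of each gene, the mean ratio was above 0 for 5 genes and below 0 for 3, where 44.8% of all probes were above 0. The median was 0.22 beside −0.05 over all probes. The 3 megakaryocyte genes were all above 0 and the 5 erythroid genes had a median of −0.02. By none of the call criteria was the share of member probes higher than that of all probes.

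**Figure D1:**
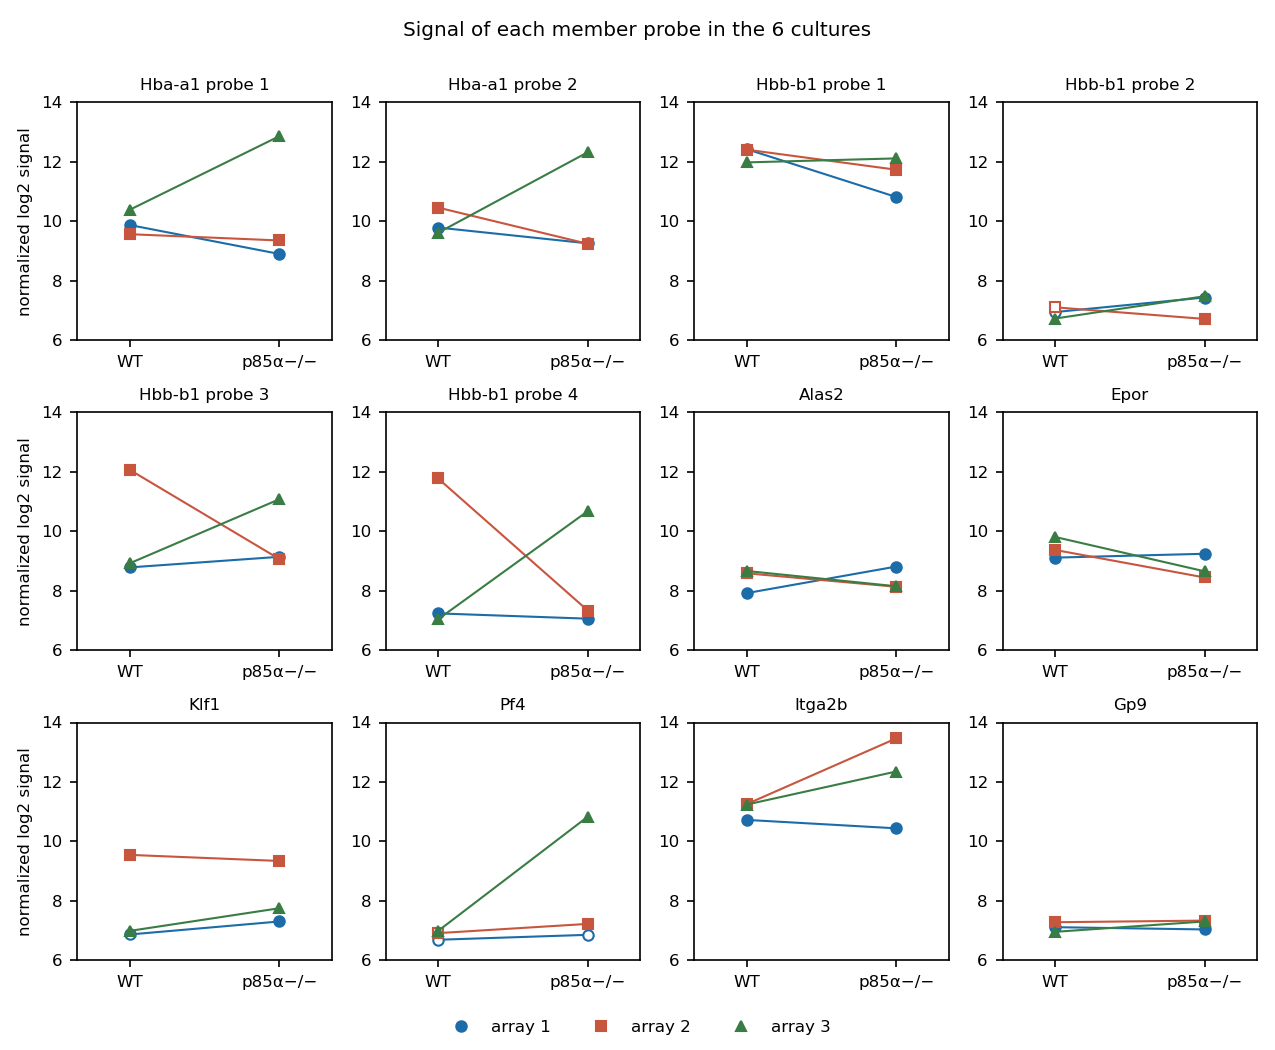
Normalized log2 signal (vertical axis) of each of the 12 member probes in WT and *p85α−/−* cultures, with lines joining the cultures hybridized to the same array and open symbols for spots not well above background. *p85α−/−* replicate 3 stands highest at both *Hba-a1* probes and at *Pf4*, and WT replicate 2 at *Hbb-b1* probes 3 and 4.

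Of the globins, *Hba-a1* encodes the α chain of adult hemoglobin. Its brightest probe (probe 1, chromosome 11, 32235785 to 32235966 in the array's annotation, which names no build) had log2 signals of 9.88, 9.57 and 10.39 in WT replicates 1, 2 and 3. In *p85α−/−* replicates 1, 2 and 3 it had log2 signals of 8.91, 9.36 and 12.87. A single culture, *p85α−/−* replicate 3, lay above all the others, and the remaining *p85α−/−* cultures lay below every WT culture. The log2 ratios were −0.97, −0.21 and 2.48, averaging 0.43 ± 1.81 (SD, n = 3; limma, adjusted p = 0.949). The mean was −0.59 without replicate 3 and 1.39 with each array centred on its median. Probe 2, which overlaps probe 1 by 30 bases, gave log2 signals of 9.80, 10.47 and 9.62 in WT and of 9.26, 9.25 and 12.33 in *p85α−/−*. It showed the same split, with *p85α−/−* replicate 3 alone above the WT cultures and the other *p85α−/−* cultures below them. Its mean log2 ratio was 0.32 ± 2.10 and its adjusted p by limma's test 0.969, and the mean was −0.87 without replicate 3 and 1.20 with that centring. The limma 95% interval of probe 1 ran from 0.277-fold to 6.57-fold, so neither a several-fold decrease nor a several-fold increase could be told from no difference with 3 arrays.

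*Hbb-b1*, the β chain gene, has 4 probes on chromosome 7. Probe 1, the brightest (99864621 to 99864680), had log2 signals of 12.43, 12.42 and 11.99 in WT and of 10.82, 11.74 and 12.12 in *p85α−/−*. Here *p85α−/−* replicate 1 was the lowest culture and the others lay close together. The log2 ratios were −1.61, −0.68 and 0.13, averaging −0.72 ± 0.87 (SD, n = 3; limma, adjusted p = 0.908), or 0.36 when each array was centred on its median. The mean of probe 1 was −0.27 without replicate 1 and −1.14 without replicate 3. Probe 3 (99864305 to 99864363) and probe 4 (99864335 to 99864394) overlap by 29 bases. Probe 3 had log2 signals of 8.79, 12.07 and 8.93 in WT and of 9.15, 9.07 and 11.08 in *p85α−/−*. Probe 4 had log2 signals of 7.24, 11.78 and 7.05 in WT and of 7.07, 7.34 and 10.68 in *p85α−/−*. Both probes were high in WT replicate 2 and in *p85α−/−* replicate 3 and low in the other 4 cultures, so that a high culture was found in each genotype. At probe 4 the log2 ratios were −0.18, −4.44 and 3.64, and their SD of 4.04 exceeded that of 99.7% of all probes, whose median SD was 0.67. The mean log2 ratio was −0.33 at probe 4 and −0.16 ± 2.62 at probe 3, with adjusted p-values of 0.986 and 0.990 by limma's test, and with median centring the means were 0.082 and 0.49. Leaving out 1 replicate moved the mean of probe 4 to −2.31 without replicate 3 and to 1.73 without replicate 2, and that of probe 3 to −1.32 and 1.26. Probe 2 (99863416 to 99863476) lay near background, with WT well above it on 1 of 3 arrays, log2 signals from 6.72 to 7.49 and a mean log2 ratio of 0.28 ± 0.60 (−0.0046 with median centring).

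The pattern across cultures was thus not shared by all probes of the β globin gene. In *p85α−/−* replicate 3, both *Hba-a1* probes and *Hbb-b1* probes 3 and 4 were high, whereas *Hbb-b1* probe 1, at 12.12, was within the range of the WT cultures. In WT replicate 2, *Hbb-b1* probes 3 and 4 were high and the *Hba-a1* probes differed, as probe 1, at 9.57, was the lowest of its WT values and probe 2, at 10.47, the highest. Other globin-related genes of the erythroid list were set beside these after their values were seen. *Hba-x*, an embryonic α-like globin, had log2 signals of 10.95, 7.55 and 7.71 in WT and of 8.01, 7.13 and 9.97 in *p85α−/−*, and was thus highest in WT replicate 1 and next in *p85α−/−* replicate 3. *Ahsp*, the chaperone of free α globin, lay between 7.19 and 8.15 in all 6 cultures, highest in *p85α−/−* replicate 3. Of the embryonic β-like globins, *Hbb-y* lay between 8.47 and 9.41, and *Hbb-bh1* was highest in *p85α−/−* replicate 1, at 10.43, and lowest in *p85α−/−* replicate 3, at 8.55.

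*Alas2* encodes the erythroid enzyme of the first step of heme synthesis (1 probe, chromosome X, 145329125 to 145329184). It had log2 signals of 7.93, 8.59 and 8.67 in WT and of 8.82, 8.14 and 8.16 in *p85α−/−*. The lowest and the highest culture were those of replicate 1, and the groups overlapped throughout. The mean log2 ratio was −0.02 ± 0.80 (SD, n = 3; limma, adjusted p = 0.996), with a 95% interval from 0.440-fold to 2.20-fold, and 0.34 with median centring. In *p85α−/−* replicate 3, where both *Hba-a1* probes were highest, *Alas2* was below WT replicates 2 and 3.

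*Epor*, the erythropoietin receptor (1 probe, chromosome 9, 21837376 to 21837435), had log2 signals of 9.12, 9.38 and 9.82 in WT and of 9.25, 8.45 and 8.66 in *p85α−/−*. *p85α−/−* replicates 2 and 3 lay below every WT culture, while *p85α−/−* replicate 1 lay among them. The log2 ratios were 0.13, −0.93 and −1.16, averaging −0.65 ± 0.69 (limma, adjusted p = 0.908), and the 95% interval ran from 0.307-fold to 1.32-fold. With 1 replicate left out the mean lay between −1.04 (without replicate 1) and −0.40 (without replicate 3), and with median centring it was −0.018.

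*Klf1*, the erythroid transcription factor that acts on the β globin promoter (1 probe, chromosome 8, 83491092 to 83491151), had log2 signals of 6.87, 9.55 and 6.99 in WT and of 7.31, 9.34 and 7.75 in *p85α−/−*. The high values were those of replicate 2 in both genotypes, which shared an array. WT was well above background on 2 of 3 arrays. The log2 ratios were 0.44, −0.20 and 0.76, averaging 0.33 ± 0.49 (SD, n = 3; limma, adjusted p = 0.908). The mean was 0.12 without replicate 3 and 0.60 without replicate 2, 1.13 with the scanner software's processed signals and −1.61 in the authors' table. The SD of *Klf1* over the 6 cultures was 1.19, above that of 83.4% of all probes, and the SD of its ratio was above that of 38.5%. Of the cultures high for *Klf1*, WT replicate 2 was high at *Hbb-b1* probes 3 and 4 and *p85α−/−* replicate 2 was not.

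**Figure D2:**
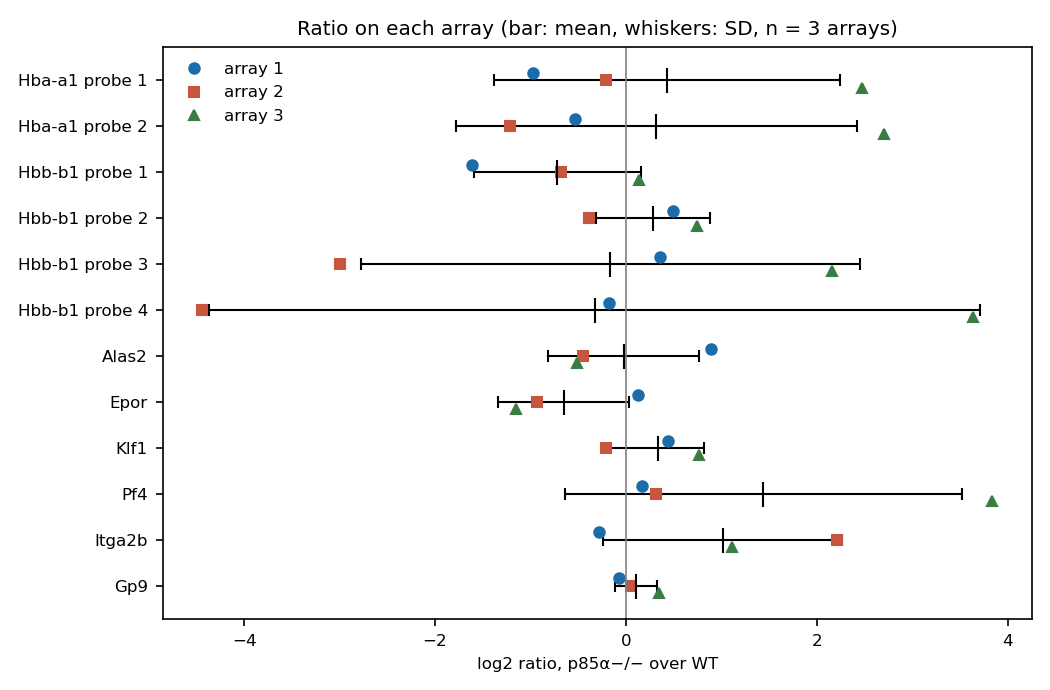
Log2 ratio of *p85α−/−* over WT (horizontal axis) on each of the 3 arrays for the 12 member probes, with a vertical bar for the mean and whiskers for the SD (n = 3 arrays). The ratios lie on both sides of 0 at 11 of 12 probes, and the widest spread is that of *Hbb-b1* probe 4, from −4.44 to 3.64.

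Among the megakaryocyte genes, *Pf4* encodes platelet factor 4, a chemokine of platelet granules (1 probe, chromosome 5, 90744523 to 90744582). It had log2 signals of 6.69, 6.92 and 6.99 in WT and of 6.86, 7.23 and 10.83 in *p85α−/−*. *p85α−/−* replicate 3 alone was clearly raised above the rest, by 3.61 on the log2 scale over the next culture. WT was well above background on 1 of 3 arrays and *p85α−/−* on 2 of 3, so the low values are near what the array could measure. The log2 ratios of 0.17, 0.31 and 3.84 were all above 0. Their mean was 1.44 ± 2.08 (SD, n = 3; limma, adjusted p = 0.908), with a 95% interval from 0.448-fold to 16.4-fold, and without replicate 3 the mean was 0.24. It was 2.08 without replicate 1, 2.58 with the processed signals, 2.77 with the scanner's log ratio and 0.38 in the authors' table. *Ppbp*, another platelet granule chemokine of the megakaryocyte list, was looked up after these values were seen. It had log2 signals of 6.57, 6.53 and 7.11 in WT and of 6.65, 6.63 and 8.49 in *p85α−/−*, and so was highest in the same culture as *Pf4*. *Ppbp* too was dim, with WT well above background on 1 of 3 arrays and *p85α−/−* on 2 of 3. The list it was taken from went the other way on replicate 3, where its 28 measured genes had a median log2 ratio of −0.59.

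*Itga2b* encodes integrin αIIb (CD41), which pairs with the β3 chain on platelets and is also carried by early blood progenitors and mast cells. Its probe (chromosome 11, 102567178 to 102567386) had log2 signals of 10.72, 11.25 and 11.24 in WT and of 10.44, 13.46 and 12.35 in *p85α−/−*. *p85α−/−* replicates 2 and 3 lay above every WT culture, and *p85α−/−* replicate 1 was the lowest of the 6. The log2 ratios were −0.28, 2.21 and 1.11, averaging 1.01 ± 1.25 (SD, n = 3; limma, adjusted p = 0.908), with a 95% interval from 0.645-fold to 6.32-fold. *Itga2b* met 1.5-fold with an unadjusted p under 0.05 without replicate 1, at a log2 ratio of 1.66, and when each array was centred on its median in place of quantile normalization, at 1.96. With that centring 6.54% of all probes met the criteria, and 91.1% of those were higher in *p85α−/−*. Without replicate 2 the mean of *Itga2b* was 0.41, and in the authors' table it was −0.67. *Itgb3*, its partner chain, did not follow it, with a mean log2 ratio of −0.47 ± 0.73 and log2 signals from 15.68 to 16.97.

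*Gp9*, platelet glycoprotein IX (1 probe, chromosome 6, 87854749 to 87854808), had log2 signals of 7.12, 7.28 and 6.96 in WT and of 7.04, 7.34 and 7.31 in *p85α−/−*. All 6 cultures lay close together. The mean log2 ratio was 0.11 ± 0.22 (SD, n = 3; limma, adjusted p = 0.960), with the narrowest 95% interval of the members, from 0.663-fold to 1.75-fold. The partners of glycoprotein IX had mean log2 ratios of −0.59 ± 1.78 (*Gp1ba*), −0.15 ± 0.63 (*Gp1bb*) and −0.14 ± 0.37 (*Gp5*).

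Counted over cultures, 4 of the 12 member probes had their highest signal in *p85α−/−* replicate 3, where 14.1% of all probes did, and 3 had it in WT replicate 2, against 19.4%. The 4 were both overlapping *Hba-a1* probes, *Pf4* and *Hbb-b1* probe 2, which lay near background and led by only 0.042. By the brightest probe of each gene, *p85α−/−* replicates 2 and 3 were each highest for 2 of 8 genes, and WT replicate 2 for 1. On replicate 3, 6 of the 8 genes had a ratio above 0 (median 0.56), where 49.5% of all probes did. On replicate 1 this held for 4 of 8 genes (median 0.03) and 48.6% of all probes, and on replicate 2 for 3 of 8 genes (median −0.21) and 49.3% of all probes. The wider lists described below had medians under 0 on replicate 3, at −0.17 for the erythroid and −0.59 for the megakaryocyte list. Some neutrophil markers were also high in *p85α−/−* replicate 3. The summed normalized signal of the 10 markers was 9611 to 19975 in WT, 70370 and 7510 in *p85α−/−* replicates 1 and 2, and 234604 in *p85α−/−* replicate 3, of which *Mpo* alone gave 84.2%. Without *Mpo* the sums were 3007 to 4908 in WT and 24776, 5872 and 36974 in *p85α−/−* replicates 1, 2 and 3. In *p85α−/−* replicate 3, 6 of the 10 markers had their highest signal, while the other 4, *Prtn3*, *Ltf*, *Ngp* and *Csf3r*, lay below their own mean over the cultures, and 8 of the 10 were well above background in all 6 cultures. *Mpo*, which encodes myeloperoxidase of immature neutrophils, had a log2 signal of 17.59 there and of 12.20 to 14.05 in WT. *p85α−/−* replicate 1 was also high for *Elane* (11.94), *Mpo* (15.48), *Camp* (11.66), *S100a8* (11.94) and *S100a9* (13.60), while 4 of the 10 markers lay below their own mean there. *Hba-a1* probe 1 had its lowest signal in that culture, at 8.91. *Pf4*, at 6.86, was within the range of the WT cultures and not well above background there. The cells had been sorted for KIT and the IgE receptor together before the culture in SCF. The purity of that sort is not given in the sources used here, and the part of neutrophil RNA in the member values was not tested. Of the 17 mast cell markers measured, 16 were well above background in all 6 cultures, and 16 had a mean log2 ratio above 0 (median 1.47), where 44.8% of all probes did. Their summed signals were 45789 to 80365 in WT and 129377 to 208932 in *p85α−/−*. By limma 0 of the 17 had an adjusted p under 0.05 (lowest 0.784), and 9 were above 0 on all 3 arrays, where 25.8% of all probes had 1 sign. The 9 macrophage markers summed to 7711 to 9918 in WT and 6264 to 7151 in *p85α−/−*, and the 6 lymphocyte markers to 3242 to 10103 and 3508 to 5029. The brightest probe of *Pik3r1* had a mean log2 ratio of 0.59 ± 0.79 and its other 3 probes one of −0.58, 0.32 and −0.04, and directions are those of the labels. The median signal was 71.5 to 141.2 in the WT channels and 206.6 to 517.3 in the *p85α−/−* channels, and no member spot was saturated or an outlier.

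**Figure D3:**
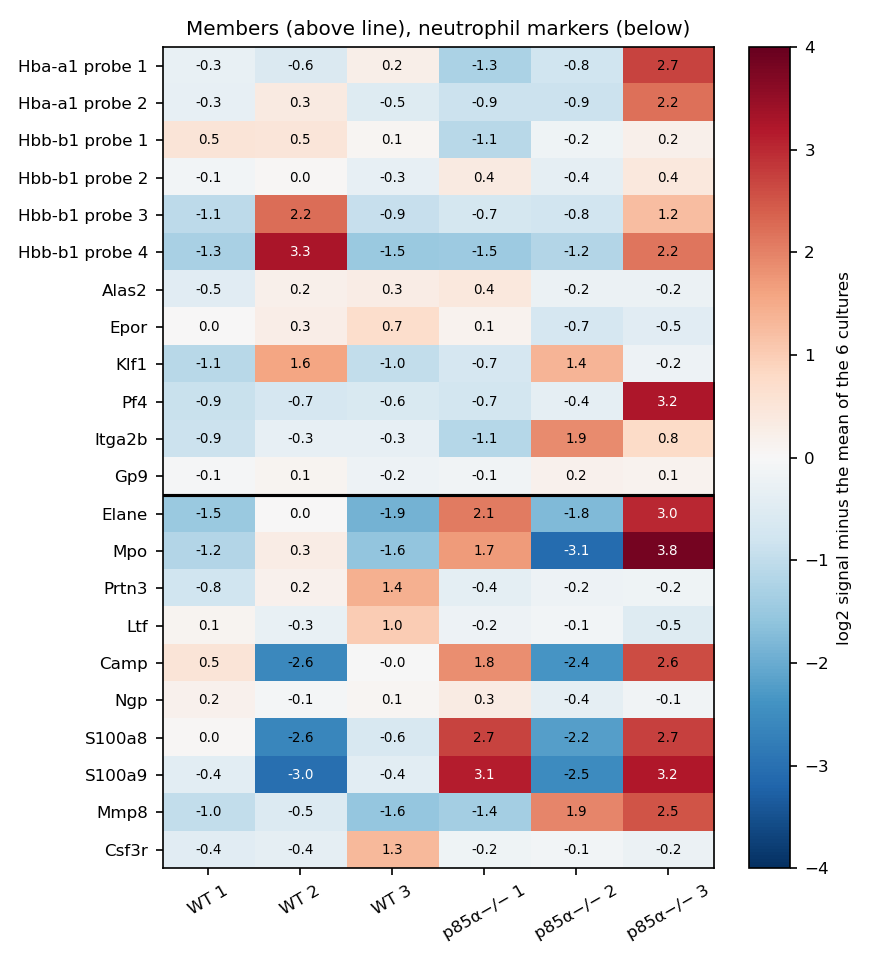
Log2 signal of each probe minus its own mean over the 6 cultures (colour and printed value), for the 12 member probes above the line and the 10 neutrophil markers (brightest probe) below it. *p85α−/−* replicate 3 is high for *Hba-a1* and *Pf4* and for *Elane*, *Mpo*, *Camp*, *S100a8*, *S100a9* and *Mmp8*, and not for *Prtn3*, *Ltf*, *Ngp* and *Csf3r*.

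The wider erythroid list holds 37 genes, of which 35 had a probe. Their mean log2 ratio was above 0 for 14 and below 0 for 21, where 44.8% of all probes were above 0. The median was −0.25 (0.18 when each array was centred on its median) beside −0.05 over all probes. In each direction 1 gene was past 1.5-fold with an unadjusted p under 0.05, where 4.44% of all probes were past these criteria. *Trim10*, which encodes a RING finger protein of maturing erythroid cells, was the lowest. It had log2 signals of 10.47, 12.08 and 10.83 in WT and of 8.12, 9.40 and 8.76 in *p85α−/−*, so that every *p85α−/−* culture lay below every WT culture. Its log2 ratios were −2.35, −2.68 and −2.07, averaging −2.37 ± 0.30 (SD, n = 3; limma, adjusted p = 0.763). *Trim10* met the criteria of fold and unadjusted p but not the adjusted threshold, and among the alternatives run it failed the criteria only in the authors' table, at −1.38. The next lowest were *Gypc* (glycophorin C of the red cell membrane), at −1.28 ± 1.60 (−0.39 without replicate 1 and −0.34 with median centring), and *Slc4a1* (the band 3 anion exchanger), at −1.13 ± 0.80 (−0.55 with median centring) and below 0 on all 3 arrays. *Slc4a1* met the 2 criteria without replicate 3, at −1.55.

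*Tal1* and *Urod* were among the highest erythroid-related genes. *Tal1*, a transcription factor used by erythroid cells, megakaryocytes and mast cells alike, had log2 signals of 12.61, 10.67 and 10.96 in WT and of 14.25, 11.82 and 14.27 in *p85α−/−*. It was higher in *p85α−/−* on each array, with a mean log2 ratio of 2.03 ± 1.13 (limma, adjusted p = 0.908), and the groups overlapped. *Tal1* no longer met the 2 criteria in the authors' table, at a log2 ratio of 0.41, with loess normalization, at 1.85, without replicate 1, at 2.23, without pairing by array, or by either form of the methods' test. *Urod*, an enzyme of heme synthesis, had 0.93 ± 1.18, and 0.26 without replicate 1. The factors *Gata1*, *Zfpm1* and *Nfe2*, singled out after their values were seen, had 0.32 ± 1.10, −1.05 ± 1.04 and −0.25 ± 1.56.

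The wider megakaryocyte list holds 29 genes, 28 with a probe, and 11 were above 0 and 17 below, with a median of −0.19 (0.28 with median centring). Of all probes, 44.8% were above 0. No gene was past the 2 criteria upward and 3 were past them downward, where 4.44% of all probes were past them and 62.6% of those were higher in *p85α−/−*. *Gng11*, a G protein γ subunit abundant in platelets, had log2 signals of 10.79, 12.17 and 11.44 in WT and of 9.28, 11.20 and 9.90 in *p85α−/−*. Each *p85α−/−* culture was below the WT culture of its array, although the groups overlapped, with a mean log2 ratio of −1.34 ± 0.32. *Treml1*, a receptor of platelet granules, had log2 signals of 12.42, 13.39 and 12.90 in WT and of 11.21, 12.48 and 11.08 in *p85α−/−*, with a mean log2 ratio of −1.31 ± 0.47. *F5*, coagulation factor V, had −0.90 ± 0.33 and was also lower on all 3 arrays. For these 3 genes limma gave an adjusted p of 0.908. With median centring all 3 failed the criteria, at −0.65 for *Gng11*, −0.25 for *Treml1* and −0.53 for *F5*, as they did in the authors' table, where *Treml1* was at 1.37. Without pairing by array *Gng11* and *F5* failed them, and *F5* also did with dim probes left out, in each case at an unchanged ratio. With the processed signals *Gng11* (−1.49) and *Treml1* (−1.41) failed them at a larger ratio, and by the methods' unpaired test all 3 did at the same ratio. Without replicate 1 *Gng11* (−1.26) and *Treml1* (−1.36) no longer met the criteria, nor did *Treml1* without replicate 3 (−1.06), nor *F5* without any 1 of the replicates (−1.04 to −0.72).

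*Clec1b*, the platelet receptor for podoplanin, had a mean log2 ratio of −0.91 ± 0.88. The highest of this list were *Tbxas1*, thromboxane synthase, at 2.10 ± 1.94, the tetraspanin *Cd9* at 1.22 ± 1.02 and the transcription factor *Fli1* at 1.22 ± 1.62, with adjusted p-values of 0.908 by limma's test. *Tbxas1* had log2 signals of 10.07, 9.32 and 8.57 in WT and of 10.16, 11.57 and 12.53 in *p85α−/−*, all *p85α−/−* cultures being above all WT cultures. The ratio on replicate 1 was 0.09, and without that replicate the mean was 3.11 and met the 2 criteria, whereas without replicate 3 it was 1.17. *Tbxas1* also met them with median centring, at 2.91, and without pairing by array. *Cd9* was at 0.73 without replicate 3 and met the criteria without replicate 1, at 1.75, and with median centring, at 2.07. *Fli1* was at 0.59 without replicate 3 and met them without replicate 2, at 2.14. *Clec1b* was at −0.53 without replicate 2 and met them without replicate 3, at −1.39, and without pairing by array.

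**Figure D4:**
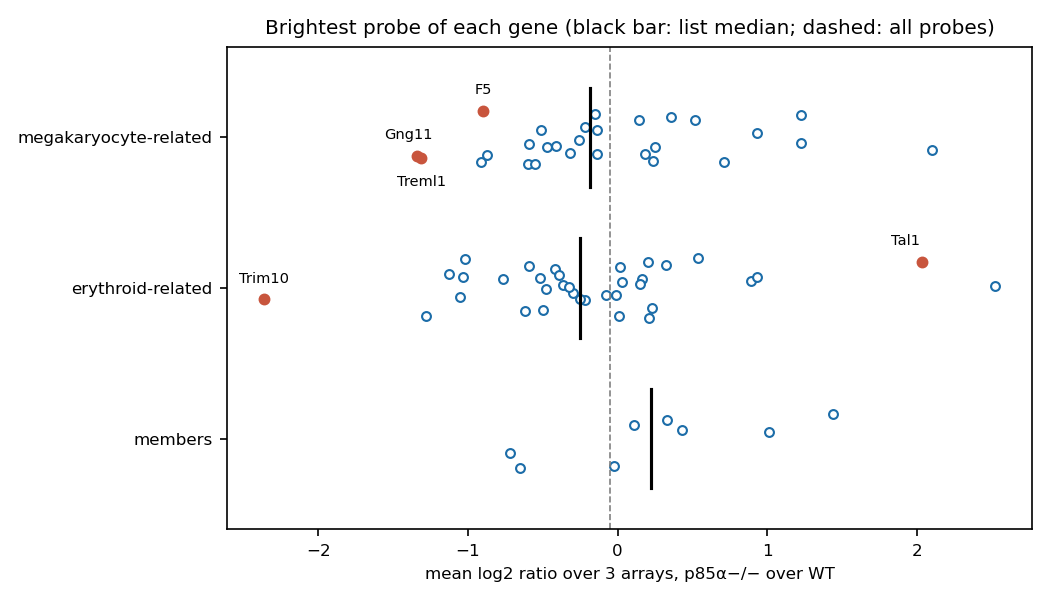
Mean log2 ratio of *p85α−/−* over WT across 3 arrays (horizontal axis) for the brightest probe of each gene in the 8 members, 35 erythroid-related and 28 megakaryocyte-related genes, with a black bar for each median and a dashed line for the median of all probes. Filled points met 1.5-fold with an unadjusted p under 0.05, *Trim10* and *Tal1* of the erythroid list and *Gng11*, *Treml1* and *F5* of the megakaryocyte list, and none of the members.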

How the data were processed

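Gene expression was measured on 3 Agilent 2-colour arrays (WT Cy3, *p85α−/−* Cy5). The slide and the scan day were shared by all arrays. Spot intensity values were deposited as extracted by Agilent Feature Extraction: unnormalized mean signals and background medians beside processed signals, with flags for outlier, saturated and well above background spots. The same software made a deposited log10 ratio (red over green), and the authors' own table gives such a log10 value for every probe on every array. There, replicate 1 equals the scanner's ratio on all 40929 probes with 1 spot, and replicates 2 and 3 on 190 and 226 (tolerance 1.5e-05), so it served only as an alternative. Of the 12 member probes, all 12 were equal in replicate 1 and 0 in replicates 2 and 3. Versions were not given in the sources used here.

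From the mean signals, background-corrected log2 values (normexp, offset 50), quantile normalized over the 6 channels, were computed in R 4.3.3 with limma 3.58.1. Spots that were controls or outliers were dropped, replicate spots averaged, and each array's log2 ratio fitted with an intercept only (eBayes, Benjamini-Hochberg over 41157 probes), which pairs the cultures of an array. A gene was led by its brightest probe. From the wider lists, the 3 highest and 3 lowest genes among those above background in 1 channel of every array were named, and all past 1.5-fold with an unadjusted p under 0.05. A result for 1 gene that this rule takes is not reported here. The members and lists were chosen with earlier results of these data known. The procedure was tested on simulated data. Promoter letters came from RefSeq (GRCm38.p6). Alternatives were other normalizations, background corrections and filters, the authors' table, limma without pairing, the methods' t-test, the mean over probes, and each replicate left out.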

Additional observations from a re-analysis of the deposited data

How the results depend on the processing

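No probe had an adjusted p under 0.05 by limma's or the methods' test under any of 14 alternatives, and the smallest adjusted p in any of them was 0.368. The 2 criteria, 1.5-fold with an unadjusted p under 0.05, were met by 1829 probes, by 1125 in the methods' unpaired test and 819 in the paired one, and by 1555 to 3165 with 1 replicate left out. Of 169 member values, 145 kept direction and side of the threshold, 22 changed sign and 2 came past the threshold, both of *Itga2b*, so that the member count was 1 under median centring and 0 to 1 with 1 replicate left out. Median centring put 6.54% of all probes past the criteria, and 91.1% of those were higher in *p85α−/−*. Without replicate 1, the setting with 1 member past them, the share of all probes was 3.78%. *Pf4* kept its sign in all 13 alternatives that measured it.

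In the authors' table the sign changed for *Hba-a1* (−0.94, other probe −0.60), *Hbb-b1* probes 3 and 4 (0.21 and 0.73), *Alas2* (0.89), *Epor* (0.49), *Klf1* (−1.61), *Itga2b* (−0.67), *Gp9* (−0.089) and *Treml1* (1.37). Median centring, which moved the median of all probes by 0.14, changed it for *Hbb-b1* probes 1 to 4 (0.36, −0.0046, 0.49 and 0.082) and *Alas2* (0.34), and the scanner's log ratio for *Alas2* (0.039). With 1 replicate left out, *Hba-a1* ran from −0.59 to 1.13 (other probe −0.87 to 1.09), *Hbb-b1* probe 3 from −1.32 to 1.26 and probe 4 from −2.31 to 1.73, *Alas2* from −0.48 to 0.22 and *Gp9* from −0.011 to 0.20. In replicates 2 and 3 of the authors' table, 0 of the 12 member probes carried the scanner's own ratio. Its values therefore cannot be read as the same probes processed in another way. Beyond that, and the fewer samples when a replicate was left out, the cause was not tested.

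The erythroid list's median was 0.18 and the megakaryocyte list's 0.28 under median centring, and the erythroid median ran from −0.25 to −0.13 when 1 replicate was omitted. For the megakaryocyte list, leaving out 1 replicate gave medians of −0.27 to −0.058, and the authors' table gave 0.073. Genes past the criteria numbered 1 for the erythroid list with loess and by either form of the methods' test, and 1 to 4 when 1 replicate was omitted. For the megakaryocyte list they numbered 3 without pairing by array, where *Clec1b* and *Tbxas1* came in and *Gng11* and *F5* fell out, 1 with the processed signals, and 0 in the authors' table and by the unpaired test. With no replicate block, that is without pairing the cultures of an array, limma put 0 members and 1809 probes past the criteria. Only 3 arrays limit precision, and probes near background (*Pf4*, *Hbb-b1* probe 2, *Klf1*) or dim in WT (*Gp9*) show little below it.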
